A study of Mus musculus with 3 samples.

Results

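The Hox genes are the 39 homeobox transcription factor genes of the mouse Hoxa, Hoxb, Hoxc and Hoxd clusters. They were chosen by symbol among the 20142 genes that the array's probes name, and all 39 had a probe. Their transcripts were measured in 3T3-L1 cells, a clonal mouse line derived from embryo fibroblasts that accumulates fat when adipogenesis is induced in culture. The samples were total RNA of these cells 2, 8 and 20 days after induction, and the stated question was the effect of adipocyte hypertrophy (fat cells growing larger) on gene expression. All 3 days shared the line and the adipogenic induction, and uninduced cells were not analysed here. Each day was represented by 1 one-colour array, so no comparison between days had a replicate and no test of significance was possible. One line that is a single clone does not sample the spread between fat depots or animals.

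Hox proteins bind DNA through a homeodomain, usually together with cofactors of the TALE class (the Pbx, Meis and Pknox proteins), and assign cells their place along the body axis of the embryo. Genes at one end of each cluster act in the head and neck and genes at the other end act in the hindquarters, and members with the same number in different clusters are paralogs that descend from 1 ancestral gene. Many adult mesenchymal cells, those of fat depots among them, keep a Hox pattern that reflects where in the body they arose.

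RefSeq promoter entries (build GRCm38.p6) were found for 22 of the 39 genes. The results below turn on 8 Hox genes that differed at least 2-fold between some pair of days, and 4 of these had an entry. The 250 bases before the start of these 4 genes are printed because Hoxa3 and Hoxa7 were higher on the later days while Hoxd3 and Hoxd4, the paralogs of Hoxa3 and Hoxa4, were lower. Capitals mark each CpG, the pair of bases that can carry DNA methylation in mammals, and any match to a motif searched for.

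Hoxa3, chr6:52213068-52213317, minus strand: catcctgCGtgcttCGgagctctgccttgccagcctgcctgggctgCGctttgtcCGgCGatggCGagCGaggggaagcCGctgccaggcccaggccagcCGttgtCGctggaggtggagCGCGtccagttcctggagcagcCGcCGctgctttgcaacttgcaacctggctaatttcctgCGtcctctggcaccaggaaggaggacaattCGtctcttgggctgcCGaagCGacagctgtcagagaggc

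Hoxa7, chr6:52218574-52218823, minus strand: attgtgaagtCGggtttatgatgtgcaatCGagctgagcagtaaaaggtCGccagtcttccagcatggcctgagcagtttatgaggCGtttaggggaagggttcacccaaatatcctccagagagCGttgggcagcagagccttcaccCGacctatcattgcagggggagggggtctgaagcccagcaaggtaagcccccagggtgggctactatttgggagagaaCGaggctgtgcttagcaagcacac

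Hoxd3, chr2:74711743-74711992, plus strand: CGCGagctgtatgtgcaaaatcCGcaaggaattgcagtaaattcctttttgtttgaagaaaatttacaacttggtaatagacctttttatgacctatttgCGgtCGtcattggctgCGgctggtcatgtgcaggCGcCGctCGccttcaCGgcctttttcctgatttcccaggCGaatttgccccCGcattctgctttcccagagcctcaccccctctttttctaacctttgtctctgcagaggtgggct

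Hoxd4, chr2:74721728-74721977, plus strand: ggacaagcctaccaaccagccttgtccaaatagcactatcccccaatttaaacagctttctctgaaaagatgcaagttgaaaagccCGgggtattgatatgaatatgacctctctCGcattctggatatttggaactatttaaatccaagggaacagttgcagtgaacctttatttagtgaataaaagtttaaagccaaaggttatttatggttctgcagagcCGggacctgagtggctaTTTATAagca

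The Hoxa3 window held 18 CpGs at 64.8% G and C, the Hoxa7 window 7 at 54.8%, the Hoxd3 window 12 at 49.2% and the Hoxd4 window 3 at 40.4%. The listed start of Hoxa3 lies upstream of Hoxa6, so its window is not next to the Hoxa3 coding region. Likewise, the Hoxd3 window lies upstream of the Hoxd4 window by the printed coordinates, so it is not next to the Hoxd3 coding region. Over 24 windows of Hox genes the medians were 58.6% G and C and 12.5 CpGs, against 52.4% and 6 over all 32851 windows in the table. Both strands were searched for 3 motifs. The paired Hox and Pbx motif TGATNNAT lay in 7.68% of all windows and in 4 of the 24 Hox windows. The homeodomain core TAATTA lay in 4.84% of all windows and in 2 of the 24. The TATA box letters TATAAA lay in 12.4% of all windows and in 4 of the 24. Among the 4 printed windows the single match was a TATA box on the opposite strand of Hoxd4, with its position at -10 from the start. A match describes these letters in this window and says nothing about binding.

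The 75th percentile of processed intensity was 662 on day 2, 636 on day 8 and 927 on day 20, so the day 20 array was the brightest. Between 55.3% and 56.9% of spots were marked well above background by the scanner software, and no spot was saturated. A level is given here as log2 of the probe's processed intensity relative to the 75th percentile of its array, so 0 is that percentile and each unit is 2-fold. Levels of different genes come from different probes and are not amounts of transcript that can be ranked. The lowest level marked well above background was -5.70 on day 2, -5.76 on day 8 and -5.91 on day 20. Adipoq, which encodes the fat cell hormone adiponectin, stood at a level of 5.07, 8.90 and 8.18 on days 2, 8 and 20, and Pparg, the master regulator of adipogenesis, at 4.46, 6.17 and 6.02. Fabp4, the fat cell lipid carrier, stood at 8.40, 8.35 and 7.64, and Dlk1, a preadipocyte protein, at 5.47, 5.02 and 6.49. Days 8 and 20 had all 10 fat cell markers and all 10 preadipocyte and fibroblast markers well above background. Day 2 had 9 of each, without Lep (fat cells) and Cd34 (preadipocytes and fibroblasts). Markers of cells a pure line should lack were counted where well above background on at least 1 array, as 66.8% of all named genes were. The counts were 3 of 7 for blood cells, 3 of 5 for endothelium and 3 of 6 for epithelium and mesothelium. They were 2 of 6 for skeletal muscle and 3 of 5 for neural cells. Those marked on all 3 arrays were Csf1r, Itgam and Cd3e (blood), Kdr and Pecam1 (endothelium), Krt18 and Msln (epithelium and mesothelium), Acta1 and Des (muscle) and Snap25 (neural). Ptprc, Cdh5 and Myod1 were not marked on any array. The source of these signals was not tested.

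The family was partly on in these cells. On day 2, 19 of the 39 Hox genes (48.7%) were well above background, where 62% of all named genes were. On day 8 and again on day 20 the count was 23 (59%), against 63.7% and 62.4% of all genes. With a laxer mark, which asks only for a positive and significant signal, the counts were 29, 31 and 31. The share of all genes with that mark is not given, so these counts cannot be set against the shares above. At least 1 array detected 24 Hox genes (61.5%; 66.8% of all genes), and all 3 arrays detected 19 (48.7%; 58.6%). The mark differed between days for 5 Hox genes (12.8%; 8.17%), namely Hoxb5, Hoxb13, Hoxc9, Hoxc12 and Hoxd10, each of which had a level close to the limit on at least 1 day.

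Paralog groups 9 to 13, at the hind end of the clusters, had the smallest share of genes detected. Over all named genes, 66.8% were detected on at least 1 array and 58.6% on all 3. Of the 8 genes of paralog groups 1 to 3, which pattern the hindbrain and neck, 6 were detected, and all 6 on every array. Of the 15 genes of groups 4 to 8, which pattern the neck and trunk, 11 were detected on at least 1 array and 10 on all 3. Of the 16 genes of groups 9 to 13, which pattern the lower trunk, limbs and tail, 7 were detected on at least 1 array and 3 on all 3. The count for groups 9 to 13 was 3 on day 2, 6 on day 8 and 6 on day 20.

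By cluster, 8 of 11 Hoxa genes (chromosome 6), 6 of 10 Hoxb genes (chromosome 11), 5 of 9 Hoxc genes (chromosome 15) and 5 of 9 Hoxd genes (chromosome 2) were detected on at least 1 array. The share over all named genes was 66.8%, and 58.6% were detected on all 3 arrays. All 8 detected Hoxa genes were well above background on every array, where 4 of 6 detected Hoxb, 3 of 5 Hoxc and 4 of 5 Hoxd genes were. The 15 genes below the mark on all 3 arrays were Hoxa10, Hoxa11, Hoxa13, Hoxb1, Hoxb7, Hoxb8, Hoxb9, Hoxc5, Hoxc8, Hoxc10, Hoxc11, Hoxd1, Hoxd11, Hoxd12 and Hoxd13. Probes not well above background have an upper limit here, and an absent transcript cannot be told from a weak probe.

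**Figure D1:**
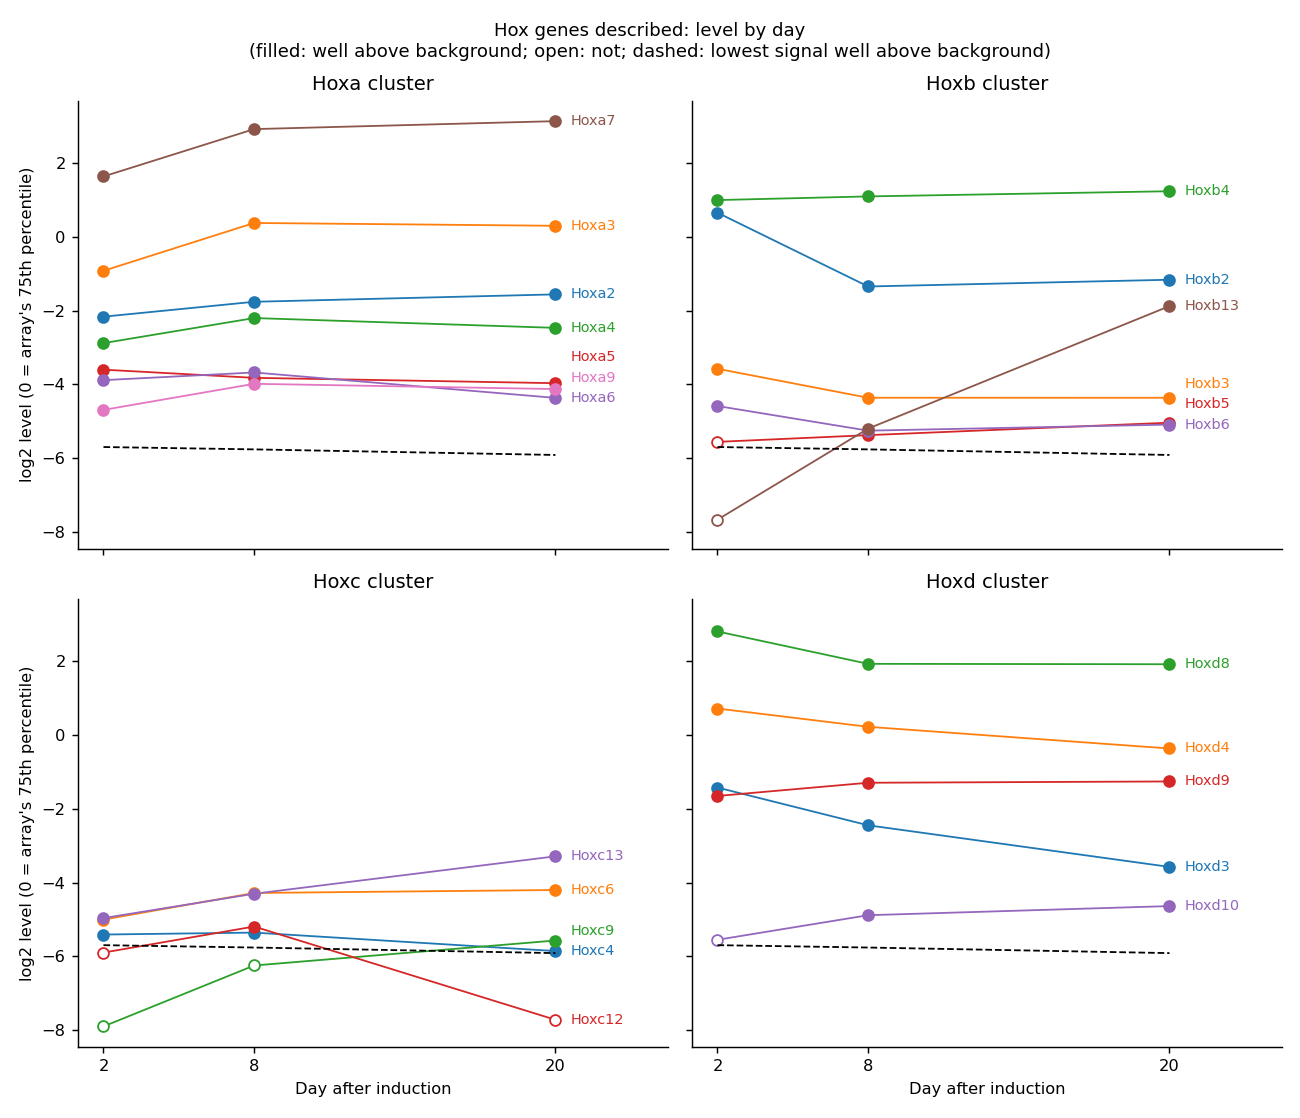
Log2 level of the Hox genes detected on at least 1 array and described in the text, relative to the 75th percentile of its array, on days 2, 8 and 20, with 1 panel per cluster and 1 array per day. Filled points are well above background and open points are not, dashed lines mark the lowest level well above background, and levels of different genes are not comparable as amounts. Hoxa7 climbs from 1.63 to 2.91 between days 2 and 8, Hoxb2 drops from 0.65 to -1.35, and Hoxb13 climbs to -1.88 on day 20.

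Between day 2 and day 8, Hox genes differed in both directions, with Hoxa3 and Hoxa7 higher and Hoxb2 and Hoxd3 lower. Of the 19 measured on both arrays, 3 reached 2-fold upward on day 8 (15.8%), against 13.8% of the 12044 genes measured, and 2 reached it downward (10.5%), against 12.9%. Past 2-fold in either direction were 26.3% of the Hox genes and 26.7% of all genes, so the family was past 2-fold about as often as genes in general. The median difference was 0.21 on the log2 scale, with 12 genes above 0 and 7 below, beside a median of -0.06 over all genes. These shares describe 1 pair of arrays, and in RNA from a whole culture fewer cells of a type and less RNA per cell cannot be told apart. The technical SD given beside a difference was derived from repeat probes, each with 10 spots per array, and covers the spread between spots only. The dimmest Hox probes carry the SD of the dimmest group of repeat probes, which may understate their spread. By the technical SD 9 Hox genes were higher and 6 lower by over 2 SD, and 4 were within it. The 6 include Hoxb3, whose probes disagree.

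Hoxa3 and Hoxa7 were among the genes past 2-fold upward. Hoxa3, needed for the thymus and parathyroid, had a level of -0.92, 0.37 and 0.30 on days 2, 8 and 20. Hoxa7, which acts in thoracic vertebrae, had a level of 1.63, 2.91 and 3.13. In both, day 2 was the low sample and the later days lay together. The day 8 level of Hoxa3 was 2.46-fold higher than day 2 (1.30 ± 0.07, technical SD) and that of Hoxa7 was 2.43-fold higher (1.28 ± 0.06, technical SD). Both stayed past 2-fold in the 9 other settings, at 1.08 to 1.43 for Hoxa3 and 1.22 to 1.45 for Hoxa7.

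Further Hoxa genes differed by less than 2-fold. Hoxa2, which patterns the second pharyngeal arch, had a level of -2.17, -1.76 and -1.56, a difference of 0.40 between days 2 and 8. Hoxa4 had a level of -2.88, -2.20 and -2.47, a difference of 0.68, and Hoxa9, a gene also known from blood progenitors, had -4.69, -3.98 and -4.13, a difference of 0.71. The other probe of Hoxa9 was not well above background on any array and differed by -0.08. Hoxa6 had -3.89, -3.68 and -4.37, a difference of 0.21. Hoxa5, a regulator of lung and neck development, was below 0, at -3.60, -3.82 and -3.97, with day 8 at -0.22 from day 2. The sign of the day 8 difference was the same in every setting run for each of these Hoxa genes, and the median of the cluster was 0.69.

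Downward, Hoxb2, a hindbrain gene, had a level of 0.65 on day 2, -1.35 on day 8 and -1.17 on day 20. Day 2 was the high sample. The day 8 level was 4.0-fold lower (-2.0 ± 0.07, technical SD), ranking 385 of 12044 in the downward direction, and lay between -2.0 and -1.71 in the other settings. Hoxd3, which acts with Hoxa3 in the neck vertebrae, was the other gene past 2-fold, with a level of -1.43, -2.45 and -3.58. The 3 days were in steps of similar size, and the first step was 2.03-fold (-1.02 ± 0.09, technical SD). It was under 2-fold in 4 of the 9 other settings, where its smallest size was a log2 difference of -0.70.

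Other Hoxb and Hoxd genes did not reach 2-fold between days 2 and 8. Hoxb4, known for expanding blood stem cells, was nearly level, at 0.99, 1.09 and 1.23. Hoxd8 had a level of 2.80, 1.92 and 1.91, which put day 8 lower by 1.84-fold. Hoxd4, which is expressed up to a boundary in the posterior hindbrain, had 0.71, 0.22 and -0.37, a difference of -0.50. Hoxd9 had -1.66, -1.30 and -1.26, a difference of 0.36, and Hoxb6 had -4.59, -5.25 and -5.09, a difference of -0.67. Hoxb3 had -3.58, -4.36 and -4.36 by its brighter probe, a difference of -0.78, but its other probe gave 0.33, so no direction is given for this gene.

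In the Hoxc cluster, Hoxc6 had a level of -5.00, -4.28 and -4.20, a difference of 0.72 between days 2 and 8. Hoxc4, at -5.41, -5.36 and -5.86, differed by 0.05 and by -0.02 in the setting that turned its sign. Hoxc13, a regulator of hair and nail keratins, had -4.96, -4.30 and -3.29, and its day 8 difference was 0.66. All 3 lay near the lower limit of the arrays. The median difference was 0.66 for the 3 Hoxc genes, -0.73 for 4 Hoxb genes with Hoxb3 among them, and -0.69 for 4 Hoxd genes.

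**Figure D2:**
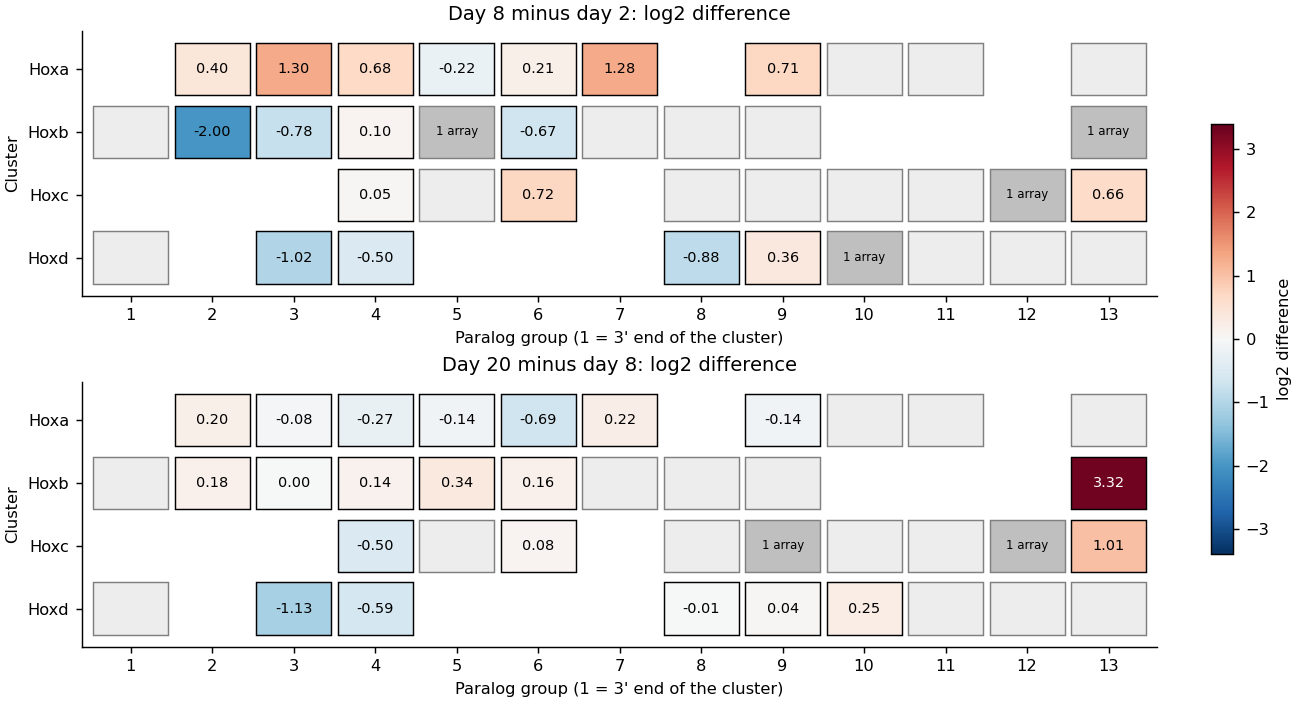
Log2 difference of each Hox gene for day 8 minus day 2 (top) and day 20 minus day 8 (bottom), for the genes described in the text, laid out by cluster (rows) and paralog group (columns, head end at the left). Coloured squares carry the difference of genes well above background on both arrays, and grey squares are genes that were so on 1 array (darker) or neither. In the top panel the Hoxa genes drawn are positive except Hoxa5, at -0.22, while 3 of 4 Hoxb genes (Hoxb3, whose probes disagree, among them) and 3 of 4 Hoxd genes are negative.

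Paralogs of the same number could be set against each other within the same arrays, since a constant scaling factor cancels in that contrast. From day 2 to day 8, the log2 difference of Hoxa2 exceeded that of Hoxb2 by 2.40 (5.29-fold, technical SD 0.111). Hoxa3 exceeded Hoxd3 by 2.32 (4.99-fold, technical SD 0.113), and the gap was 3.37 (10.3-fold) from day 2 to day 20. Hoxa4 exceeded Hoxd4 by 1.18 (2.26-fold, technical SD 0.123), and by 1.5 (2.82-fold) up to day 20. In these 3 pairs the Hoxa member gained on its paralog.

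Other pairs were mixed. Hoxa4 exceeded Hoxb4 by 0.58 between days 2 and 8, and Hoxa9 exceeded Hoxd9 by 0.35, which was within 2 technical SDs (1 SD being 0.206). Hoxc6 exceeded Hoxb6 by 2.62-fold, although both probes were dim. Hoxa6 exceeded Hoxb6 by 0.88 between days 2 and 8 but fell behind Hoxc6, at -0.51 (1 technical SD being 0.256). From day 2 to day 20 the contrast of Hoxa6 with Hoxc6 was -1.28 (2.43-fold), and Hoxc6 exceeded Hoxb6 by 2.47-fold. Up to day 20 Hoxa6 exceeded Hoxb6 by 0.02 and Hoxa4 exceeded Hoxb4 by 0.17. Both were within 2 technical SDs, 1 SD being 0.242 and 0.124. Each contrast compares single probes on 1 array a day and has no replicate check.

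From day 8 to day 20, the later step of the hypertrophy course, 19 of 22 Hox genes were under 2-fold and Hoxb13 had the largest difference. Among the 22 measured, 2 were at least 2-fold higher on day 20 (9.09%), against 3.58% of 12321 genes, and 1 was at least 2-fold lower (4.55%), against 1.74%. In either direction it was 13.6% of Hox genes and 5.32% of all genes, which is a matter of 3 genes. The median was 0.02, with 11 genes on each side of 0, beside -0.05 over all genes. Only 7 of the 22 kept their sign in every setting. Scaling by the spiked-in control transcripts moved the median over all genes from -0.05 to 0.62 and turned, among others, Hoxa4 and Hoxd4. Under that scaling 99% of all genes past 2-fold were on the higher side, against 67.3% here and 82.6% after cyclic loess.

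Hoxb13, the most posterior Hoxb gene and a gene known from the tail bud, hindgut and prostate, had processed intensities of 3.26 on day 2, 17.3 on day 8 and 252 on day 20. As levels these were -7.66, -5.20 and -1.88, with day 2 not well above background. Each day was higher than the one before, and day 20 was the high sample. Day 20 was 9.97-fold higher than day 8 (3.32 ± 0.15, technical SD), ranking 8 of the 12321 genes in the upward direction. Against day 2, day 20 was at least 14.1-fold higher and day 8 at least 1.41-fold higher. The day 20 difference from day 8 ranged from 1.29 to 3.98 in 8 other settings, lowest with a background correction that adds an offset of 50 to each intensity, more than the day 8 intensity itself. Hoxb13 rested on 1 probe printed once on each array, so no second spot or probe bore on it.

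Its paralog Hoxc13 was 2.02-fold higher on day 20 than on day 8 (1.01 ± 0.16, technical SD), and Hoxb13 exceeded it by 2.30. The Hoxc13 difference ranged from 0.18 to 1.68 in the other settings and passed 2-fold in all but the one with the offset. Hoxd3 was the gene past 2-fold downward, at 2.18-fold lower (-1.13 ± 0.12, technical SD), and was under 2-fold in 3 other settings, with -0.46 as the smallest. The non-coding transcript Hoxd3os1, named for its place opposite Hoxd3, had a level of -0.83, -0.72 and -1.68, differing by 0.12 over the earlier interval and by -0.96 over the later one.

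Several genes at the detection limit had bounds only. Hoxb5 had a level of -5.56, -5.37 and -5.04 on days 2, 8 and 20, and Hoxd10, a hindlimb gene, had -5.55, -4.88 and -4.64, in both with day 2 not well above background. Day 8 was at least 1.13-fold higher than day 2 for Hoxb5 and at least 1.59-fold for Hoxd10. Hoxc12 was detected on day 8 alone, at -5.19, at least 1.42-fold above day 2 and 1.65-fold above day 20. Hoxc9, a trunk gene, was detected on day 20 alone, at -5.57, at least 1.09-fold above day 2 and 1.14-fold above day 8. Of the 4 bounds between days 2 and 8 none reached 2-fold, where 25.1% of bounds over all genes did so upward and 10.9% downward. Of the 2 between days 8 and 20 none did either, against 8.2% upward and 8.59% downward.

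Over the whole course from day 2 to day 20, which shares its arrays with both steps above, 4 of 19 measured Hox genes were at least 2-fold higher (21.1%), against 15.5% of 11888 genes. At least 2-fold lower were 3 (15.8%), against 17%, and 36.8% were past 2-fold in either direction, against 32.4%. Of the higher genes, Hoxc13 was 3.19-fold, Hoxa7 2.82-fold and Hoxa3 2.33-fold higher on day 20. Hoxd3 was 4.44-fold, Hoxb2 3.52-fold and Hoxd4 2.12-fold lower. Hoxb13 was the 1 of 4 bounds past 2-fold (25%), where 29.5% of 1287 bounds over all genes were past 2-fold upward. Hoxa7, Hoxb2 and Hoxd3 stayed past 2-fold in every setting, while Hoxa3, Hoxc13 and Hoxd4 did not. The offset left Hoxa3 at 0.98 and Hoxc13 at 0.42. Hoxd4 was under 2-fold in 3 of 9 other settings. It was at -0.39 when scaled by spiked-in transcripts, -0.90 after cyclic loess and -0.89 with the percentile over probes detected on all 3 arrays.

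All 19 differences over this interval exceeded 2 technical SDs, with 10 higher and 9 lower, and their median was 0.24 beside -0.14 over all genes. That SD covers spot spread only, and 14 of the 19 kept their sign in every setting. Hoxb6, Hoxc4 and Hoxc6 carry the same SD, 0.182, taken from the dimmest group of repeat probes, which may understate their spread. Hoxb3 is counted among the 9 lower by its brighter probe, but its other probe gave 0.33. The median by cluster was 0.58 for Hoxa, -0.64 for Hoxb with Hoxb3 among its genes, 0.80 for Hoxc and -0.99 for Hoxd. Scaling by spiked-in transcripts moved the median over all genes to 0.55 and put 84.5% of genes past 2-fold on the higher side, against 47.7% here. The corresponding share was 64.9% after cyclic loess and 59.8% when the 75th percentile was taken over probes detected on all 3 arrays.

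**Figure D3:**
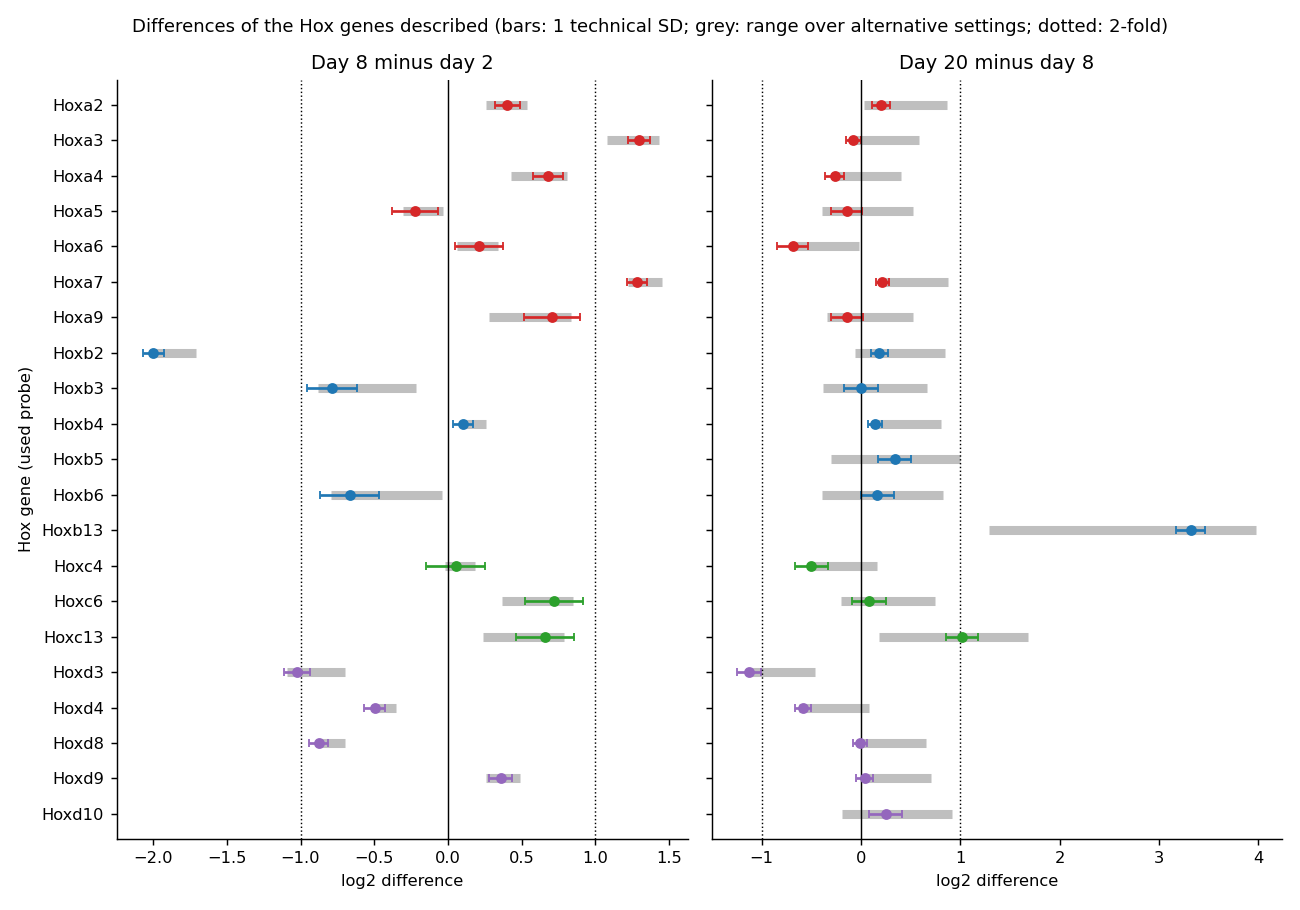
Log2 difference of the measured Hox genes described in the text for the step up to day 8 and the step up to day 20 (x axis; genes on the y axis), as points with bars of 1 technical SD, which cover spot spread only, and grey ranges over the other settings; dotted lines mark 2-fold. Hoxb13 lies at 3.32 for the later step, Hoxa3 and Hoxa7 at 1.30 and 1.28 for the earlier one, and Hoxb2 at -2.0 for the earlier one.

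The TALE cofactors, with which Hox proteins bind DNA, were all detected on every array, 9 of 9. From day 2 to day 8, Pbx4 was 3.35-fold (1.74) and Pknox2 2.50-fold (1.32) higher, and none was 2-fold lower. The other 7 differed by less than 2-fold, among them values of 0.84 for Meis3, 0.73 for Meis1, 0.07 for Pbx2, -0.33 for Meis2, -0.44 for Pknox1 and -0.59 for Pbx3. The median of the list was 0.07. Pknox2 was also 2.07-fold higher on day 20 than on day 8 (1.05), with Meis3 at 0.25. Pbx4 and Pknox2 were dim on day 2, at -4.94 and -4.23, and fell under 2-fold with the offset, to 0.54 and 0.61 from day 2 to day 8.

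Polycomb repressive complexes keep silent Hox genes off by marking and compacting their chromatin. Of the 12 genes listed for complex 2, 10 were measured on days 2 and 8, and on day 8 there were 3 past 2-fold upward and 2 past it downward, beside 13.8% and 12.9% of all genes, with a median of -0.51. The catalytic subunits went opposite ways. Ezh1, the form prominent in resting cells, was 3.30-fold higher (1.72), and Ezh2, the form prominent in dividing cells, was 2.43-fold lower (-1.28). Their partner Eed was 2.47-fold lower (-1.31). The accessory protein Phf1 was 4.59-fold higher, and Phf19, another, was at least 13.9-fold higher. From day 8 to day 20, 0 of 11 were past 2-fold, where 5.32% of all genes were. Of 19 measured genes of complex 1, 3 were at least 2-fold higher on day 8 (Pcgf5 at 1.71, the chromobox gene Cbx8 at 1.52 and Cbx2 at 1.06) and 1 lower (Pcgf6 at -1.46), with a median of 0.11. Cbx2 was at 0.76 with the offset.

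Trithorax proteins and the H3K27 demethylases work against Polycomb. Of 10 measured, none was past 2-fold upward on day 8, where 13.8% of all genes were, and 2 were past it downward, where 12.9% were. These were Dpy30 at -1.51 and Psip1 at -1.0, the latter under 2-fold in 4 of 9 other settings, and the median was -0.42. Among 8 measured inducers and insulators of the clusters, Rarg, a retinoic acid receptor, was 3.58-fold higher and Cdx1, a caudal homeobox gene, 3.15-fold higher on day 8, Cdx1 falling to 0.77 with the offset. Egr2, which activates Hoxa2 and Hoxb2 in the hindbrain, was 7.58-fold lower on day 8 (-2.92), with a level of -0.35, -3.27 and -3.25 on days 2, 8 and 20. The list's median was 0.44, and Cdx2, Cdx4, Rarb and Gdf11 were not well above background on any array.

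Positional transcription factors outside the clusters also differed in both directions. Of 53 listed, 30 were detected on at least 1 array, where 66.8% of all named genes were. Of the 24 measured on days 2 and 8, 4 were past 2-fold upward and 5 downward, beside 13.8% and 12.9% of all genes. Their median was 0.34. Foxf2, a mesenchymal forkhead gene, was 11.0-fold higher on day 8 (3.46), at a level of -3.12, 0.34 and 1.07. Nr2f1, Prrx2 and Twist2 were lower, at -1.92, -1.82 and -1.50. From day 8 to day 20, 0 of 25 were at least 2-fold higher and 1 was lower, beside 3.58% and 1.74% of all genes. The lower gene was the limb gene Dlx3 at -1.11, which was at -0.45 with spike-in scaling. Of the 14 neighbours of the clusters and ParaHox genes, 5 were measured. Among them Calcoco1 was at 1.25 and Mtx2, next to the Hoxd cluster, at -1.09. Calcoco1 was under 2-fold with the offset, at 0.93, and Mtx2 in 3 of 9 other settings, at -0.91 in the smallest. Evx1 and Evx2, homeobox genes that adjoin Hoxa13 and Hoxd13, were not well above background on any array.

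Over the whole course from day 2 to day 20, 3 of the 9 TALE cofactors were past 2-fold upward, Pknox2 at 2.37, Pbx4 at 1.57 and Meis3 at 1.1, and none downward, beside 15.5% and 17% of all genes. With the offset Pbx4 was at 0.18 and Meis3 at 0.88, while Pknox2 stayed past 2-fold at 1.23. In Polycomb complex 2 there were 3 past 2-fold in each direction, with Phf1 at 2.28 and Ezh1 at 1.83 against Ezh2 at -1.51 and Eed at -1.45. In complex 1 there were 4 upward and 1 downward, Pcgf5 at 1.91 and Pcgf2 at 1.14 among the first and Pcgf6 at -1.64 alone in the second. The chromobox gene Cbx6 was the 1 gene of complex 1 past 2-fold between days 8 and 20, at 1.02, and at 0.995 with the offset. Dpy30 and Ash2l, subunits shared by the trithorax methyltransferases, were at -1.91 and -1.02. Ash2l was under 2-fold in 6 of 9 other settings, with -0.33 as the smallest. Among the inducers, Rarg was at 2.28, Cdx1 at 1.34, Gata6 at 1.16 and Egr2 at -2.90. Foxf2 had the largest difference of the other positional factors, at 4.19 (18.2-fold), with Prrx2 at -1.46 and the limb mesenchyme gene Prrx1 at 1.30. Mtx2 was at -1.5 and Calcoco1 at 1.25. With the offset Pcgf2 was at 0.88, Cdx1 at 0.39 and Calcoco1 at 0.82. With spike-in scaling Ezh2 was at -0.82, Eed at -0.76, Pcgf6 at -0.95, Prrx2 at -0.77 and Mtx2 at -0.81.

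**Figure D4:**
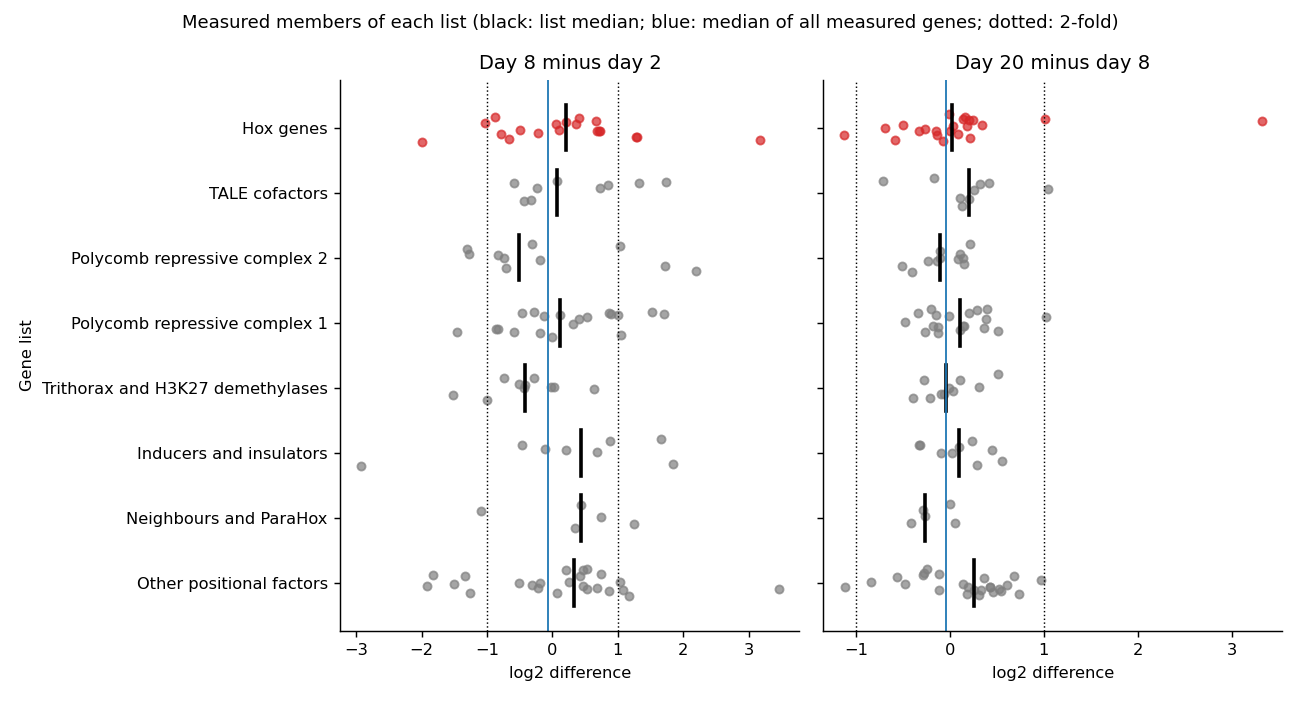
Log2 differences (x axis) of the measured genes of the Hox family and of 7 pathway lists (y axis) for day 8 minus day 2 and day 20 minus day 8, 1 point a gene, with the list's median as a black bar, the median of all genes as a blue line and dotted lines at 2-fold. The medians of the Hox genes are 0.21 and 0.02, and that of Polycomb repressive complex 2 is -0.51 in the earlier step.

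Markers of cell state and of some other cell types also differed between days 2 and 8. All 10 cell cycle genes were at least 2-fold lower on day 8, where 12.9% of all genes were, with a median difference of -4.70. Their summed level went from 147 to 14.2 and was 18.1 on day 20. The summed level of the 10 fat cell markers went from 791 to 1784 and then 1224, and that of the 10 preadipocyte and fibroblast markers from 260 to 222 and then 358. A sum is weighted to its brightest probes, and of the 9 preadipocyte and fibroblast markers measured on days 2 and 8, 6 were higher on day 8, with a median of 0.48. The summed level of the epithelial and mesothelial list was 1.29, 5.76 and 2.70 on days 2, 8 and 20, and that of the muscle list was 0.12, 1.26 and 1.38. In the former, Krt18 differed by 5.62 between days 2 and 8 and Msln by 0.69. The sums were 9.38, 10.9 and 5.28 for blood cells, 4.65, 4.28 and 2.79 for endothelium, and 6.27, 7.49 and 3.23 for neural cells. In these 3 lists 0 measured members were past 2-fold between days 2 and 8. The part of these shifts in the Hox differences was not tested.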

How the data were processed

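Scanner output of 3 one-colour Agilent arrays, 1 per day, was used, all on 1 slide. Per the file headers, the authors scanned and extracted it with Feature Extraction 10.7.1.1, and the deposited processed intensity is background-corrected and not scaled between arrays. The deposited series table holds log2 values, which were the processed intensity on the log2 scale shifted by 1 constant for each array, and served as an alternative. The detection marks are the scanner software's, per the file headers.

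Spots marked as control or outlier were not used, and spots of 1 probe were averaged on the log2 scale. From each value the 75th percentile of its array, taken over all probes but controls, was subtracted. RefSeq accessions named 26581 of 39429 probes. A gene takes its brightest probe by the mean over arrays. A difference was measured where both arrays marked that probe well above background, and was otherwise given as a bound against the lowest level well above background. A gene was counted from 2-fold on. The technical SD came from 243 probes printed 10 times. It was interpolated by level and held constant below the dimmest group of these probes. With 1 array per day, the number of arrays limits the precision and no p-value was computed.

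The rule named every Hox gene, all TALE cofactors and, of each other pathway list, up to 4 members with the largest differences of at least 2-fold in each pair of days. Some listed genes that were not above background on any array, bounds and values on other days (Evx1, Evx2, Phf19, Cdx2, Cdx4, Rarb, Gdf11 and Hoxd3os1) were named after their values were seen. The same holds for the markers named for other cell types. Some items that this rule names are not reported here, although counts and medians cover all members. The members and lists were chosen with earlier results of these data known. The alternatives were normexp (limma 3.58.1 in R 4.3.3, on median signals with an offset of 50), quantile and cyclic loess normalization, spike-in scaling, the percentile over probes detected on all arrays, the deposited table, the mean over probes, no dim filter, a filter 4-fold above the lowest signal, and a 1.5-fold threshold. Scripts were tested on simulated data.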

Additional observations from a re-analysis of the deposited data

How the results depend on the processing

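With 1 array per day, no replicate could be left out. No paired analysis was possible because each day has a single array and nothing ties the arrays to shared cultures. The sign of the day 8 difference from day 2 was kept in all settings by 18 of 19 Hox genes, that of day 20 from day 8 by 7 of 22, and that of day 20 from day 2 by 14 of 19. Many Hox probes lie near background, where the offset of the normexp correction draws intensities together. With it, the medians for day 8 from day 2, day 20 from day 8 and day 20 from day 2 were 0.088, -0.213 and -0.0684. The counts past 2-fold that moved were then 1 lower on day 8, 1 higher and 0 lower on day 20 against day 8, and 2 higher on day 20 against day 2. Over all genes the medians were -0.0286, -0.093 and -0.192. The same counts over all genes were 1196 of 12044, 206 and 100 of 12321, and 1425 of 11888. Cyclic loess gave 1 lower on day 8, 0 lower on day 20 against day 8, and medians of 0.186 and 0.467 for day 20 against days 8 and 2. Over all genes it gave 1260 of 12044 and 129 of 12321 lower, and medians of 0.0983 and 0.137. Spike-in scaling gave 1 lower on day 8, 3 higher and 0 lower on day 20 against day 8, 9 higher against day 2, and medians of 0.682 and 0.93. Over all genes these were 1483 of 12044 lower, 2085 higher and 21 lower of 12321, and 3814 of 11888 higher. The medians over all genes were 0.617 and 0.546. The Hox median less the median over all genes was 0.0645 and 0.384, the same as in the main setting. The percentile over probes detected on all arrays gave 1 lower on day 8 and medians of 0.339 (day 8 against day 2) and 0.434 (day 20 against day 2). Over all genes 1264 of 12044 were lower on day 8, and the medians were 0.0699 and 0.0502. The mean over probes gave 2 lower on day 20 against day 8, where 187 of 12330 genes were lower. With no dim filter, 5 were higher on day 8, 3 lower on day 20 against day 8, and 6 higher and 5 lower against day 2, with medians of 0.0991, -0.116 and -0.133 in the same order of pairs. Of all 20142 genes, 2616, 1315, 2581 and 3212 were so, with medians of -0.0303, -0.126 and -0.172. With the filter at 4-fold above the lowest signal, 11 Hox genes were left, 0 were higher on day 20 against day 8, and medians were 0.358 (day 8 against day 2) and 0.393 (day 20 against day 2). Over all genes 332 of 10878 were higher on day 20 against day 8, and the medians were -0.0634 and -0.131. At 1.5-fold, 7 were higher and 5 lower on day 8, 3 lower on day 20 against day 8, and 5 lower against day 2. Over all genes these were 2716 and 3047 of 12044, 1101 of 12321, and 3699 of 11888. Detection by the laxer positive and significant mark gave 29 Hox genes on day 2, against 19, and 31 on day 8 and on day 20, against 23. The share of all genes with the laxer mark is not given. Beyond what those constructions show, the cause of each move was not tested.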
